A study of Mus musculus with 4 samples.

Results

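Delta and Jagged ligands, Notch receptors and the transcription factors that set secretory fate in the gut were read on 4 arrays of mouse colon RNA, 1 array for each combination of genotype and treatment. The 10 genes are the ligands *Dll1*, *Dll4* and *Jag1*, the receptors *Notch1* and *Notch2*, the effector *Hes1* and the secretory fate factors *Atoh1*, *Gfi1*, *Spdef* and *Neurog3*. They were chosen by gene name, and every probe that carries 1 of these names was used, which gave 14 of the 39429 probes and 10 of the 22384 named genes on the array. The mice were male *Pla2g3*+/+ and *Pla2g3*-/- animals from a B6.129 background after 3 backcrosses, 42 weeks old. The targeted gene, *Pla2g3*, encodes group III secreted phospholipase A2, and the *Pla2g3*+/+ mice served as its wild-type controls. Of each genotype, 1 group received saline vehicle and 1 group received azoxymethane (AOM), a carcinogen that gives rise to colon tumors, in 6 weekly injections of 10 mg/kg, and the tissue was collected 28 weeks after the last of them. Each array held RNA pooled from several mice of 1 group, so that no group had a replicate and no ratio of 2 arrays has a p-value. The RNA came from whole tissue, which the series describes as colorectal cancer for the AOM groups.

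Notch signaling passes between touching cells. A ligand of the Delta or Jagged family on the surface of a cell engages a Notch receptor on its neighbor, the receptor is cut by ADAM proteases and γ-secretase, and its freed intracellular part enters the nucleus, where it binds RBPJ and switches on *Hes1* and related repressors. In the intestinal crypt, HES1 represses *Atoh1*, so that cells with active Notch become absorptive, whereas cells that escape it express ATOH1 and enter the secretory lineage. GFI1 and SPDEF act downstream of ATOH1 in goblet cells, the mucus-secreting cells that abound in the colon, and NEUROG3 starts the enteroendocrine (hormone-secreting) lineage.

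Levels below are probe signals relative to the 75th percentile of the same array, and ratios were taken only between arrays. Probes were ranked only to pick or name the brightest and dimmest, and summed levels of a list weigh its brightest probes most. The scanner software called 64.8% to 69.4% of the spots of an array well above background, and none saturated. The 9 genes of a pan-epithelial list, among them the keratins *Krt8* and *Krt18*, were well above background on every array, as epithelial tissue would be. *Pla2g3*, the targeted gene, goes against the labels. With vehicle, its brightest probe read 0.531 in *Pla2g3*+/+ against 0.656 in the array labeled *Pla2g3*-/-, and with AOM 0.232 against 1.40, which is 1.23-fold and 6.01-fold higher in the arrays labeled *Pla2g3*-/-. The other *Pla2g3* probes were higher in the arrays labeled *Pla2g3*-/- as well. One was 1.06-fold higher with vehicle and 6.66-fold after AOM. The dimmest was at least 2.31-fold higher with vehicle and 2.76-fold after AOM. Whether these probes lie in the deleted part of the gene is not given in the sources used here. Each direction below follows the genotype labels, and *Pla2g3*+/+ is likewise a label, in doubt as much as the other. A list of pancreatic acinar genes, led by *Ctrb1* and *Cel*, had a summed level of 43.4 in the vehicle array labeled *Pla2g3*-/- and of 0.168 to 0.382 on the 3 other arrays. All 8 genes of the list were over 2-fold higher there than in *Pla2g3*+/+ vehicle. Each vehicle value of that genotype below comes from this array, and the part of the other organ in it was not tested.

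All 10 genes were well above background on all 4 arrays by their brightest probe. With vehicle, none of them passed 2-fold between the genotypes, against 1.93% of 16396 genes past 2-fold upward in the array labeled *Pla2g3*-/- and 1.32% downward. After AOM, 5 genes were over 2-fold higher in the array labeled *Pla2g3*-/- than in *Pla2g3*+/+ (*Atoh1*, *Neurog3*, *Notch1*, *Spdef* and *Gfi1*), against 15.1% of 17203 genes, and *Dll4* was over 2-fold lower, against 12.9%. In *Pla2g3*+/+, AOM against vehicle gave 5 genes over 2-fold lower (*Spdef*, *Atoh1*, *Neurog3*, *Gfi1* and *Notch1*), against 22.4% of 17282 genes, and *Notch2* over 2-fold higher, against 15.1%. In the arrays labeled *Pla2g3*-/-, AOM against vehicle gave 3 genes lower (*Spdef*, *Gfi1* and *Atoh1*), against 15.1% of 16521 genes, and 4 higher (*Dll1*, *Notch2*, *Notch1* and *Jag1*), against 9.64%. In these 4 comparisons, in the order given, the 10 genes had median log2 ratios of -0.04, 1.09, -0.82 and -0.04, and all genes with a value had -0.02, 0.03, -0.17 and -0.08. Without scaling, the median of all genes moved up by 1.04 after AOM in *Pla2g3*+/+ and by 0.84 in the arrays labeled *Pla2g3*-/-, so that lower values after AOM that are smaller than these shifts turned higher. Every array enters 2 of the comparisons, so these are not independent of each other.

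**Figure D1:**
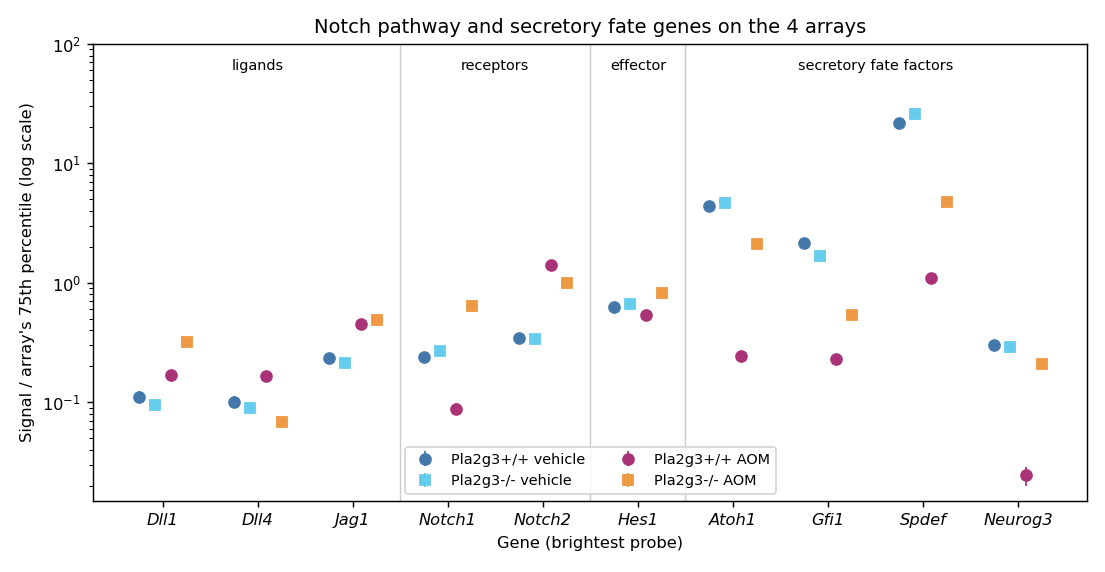
Signal of the brightest probe of each of the 10 genes over the 75th percentile of its array (log axis), by gene and array; blue shades are vehicle, purple and orange AOM, circles *Pla2g3*+/+ and squares the arrays labeled *Pla2g3*-/-, and error bars are the error model of the scanner software for a single array, mostly smaller than the marker. The vehicle arrays lie close together for every gene, and for the 4 secretory fate factors the *Pla2g3*+/+ AOM array is the lowest, at 1.09 for *Spdef* and 0.243 for *Atoh1*.

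The 4 secretory fate factors were lower after AOM in *Pla2g3*+/+ than with vehicle, by 9.42-fold to 20.2-fold, and for 3 of them the array labeled *Pla2g3*-/- showed a smaller difference past 2-fold in the same direction. *Spdef*, an ETS factor of goblet cell maturation (probe at chr17:27851401-27851460 of mm9, minus strand), had levels of 22.0 in *Pla2g3*+/+ and 25.8 in the array labeled *Pla2g3*-/- with vehicle, and of 1.09 and 4.77 after AOM. Both AOM arrays thus lay below both vehicle arrays, and the *Pla2g3*+/+ AOM array was the lowest. The level of *Spdef* was 20.2-fold lower after AOM in *Pla2g3*+/+ (log2 ratio -4.34), 5.40-fold lower in the arrays labeled *Pla2g3*-/- (-2.43), and 4.38-fold higher in the array labeled *Pla2g3*-/- than in *Pla2g3*+/+ after AOM. *Atoh1*, the basic helix-loop-helix factor that opens the secretory lineage (probe at chr6:64681161-64681220, plus strand), had levels of 4.43 and 4.70 with vehicle and of 0.243 and 2.12 after AOM. The order of the arrays was the same as for *Spdef*, with both vehicle arrays highest. *Atoh1* was 18.2-fold lower after AOM in *Pla2g3*+/+ and 2.21-fold lower in the arrays labeled *Pla2g3*-/-, and the genotypes differed 8.73-fold after AOM. The smaller of these AOM differences fell short of 2-fold with quantile normalization (log2 ratio -0.95), with normexp background correction (-0.89) and without scaling (-0.30). Normexp background correction, here followed by quantile normalization, starts from the raw spot means and pulls dim signals together.

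*Gfi1*, a zinc-finger repressor that keeps goblet and Paneth precursors from turning endocrine (probe at chr5:108145719-108145778, minus strand), had levels of 2.17 and 1.69 with vehicle and of 0.230 and 0.543 after AOM. Again both AOM arrays were lower than both vehicle arrays. *Gfi1* was 9.42-fold lower after AOM in *Pla2g3*+/+ and 3.10-fold lower in the arrays labeled *Pla2g3*-/-, where it fell short of 2-fold without scaling (log2 ratio -0.79). Its 2.35-fold difference between the genotypes after AOM fell below 2-fold with normexp background correction (log2 ratio 0.93). *Neurog3*, the factor that commits precursors to the endocrine lineage, had levels of 0.30 and 0.288 with vehicle and of 0.0245 and 0.211 after AOM by the brighter of its 2 probes (chr10:61597452-61597511, plus strand). The other (chr10:61596051-61596110) was below background on all 4 arrays. Here the *Pla2g3*+/+ AOM array was the only low one. It was 12.2-fold below the *Pla2g3*+/+ vehicle array and 8.60-fold below the AOM array labeled *Pla2g3*-/-. Both folds rest on the low level of 0.0245, just above the dimmest signals called above background (0.0126 to 0.0228). Under the alternative settings their log2 ratios shrank from -3.61 and 3.10 to as little as -1.52 and 1.21, still past 2-fold. The arrays labeled *Pla2g3*-/- differed 1.37-fold between AOM and vehicle. The error model of the scanner software puts 18.2% on the low *Neurog3* signal and about 10.0% on the other signals of these genes.

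These 4 factors differed together, so their promoters are shown, read from RefSeq on assembly GRCm38.p6 as the bases that end just before the annotated start. Entries were found for 9 of the 10 genes, all but *Hes1*, and for 11 promoters in all. Motifs of the pathway were searched on both strands, TGGGAA, the core bound by RBPJ, CACNAG, the N-box bound by HES proteins, and CAGNTG, an E-box type bound by factors such as ATOH1 and NEUROG3, and none of the matches overlapped another. Capitals mark each match. *Spdef* (chr17:27728952-27729201, minus strand), *Atoh1* (chr6:64728875-64729124, plus strand), *Neurog3* (chr10:62132840-62133089, plus strand) and the second of 2 entries of *Gfi1* (chr5:107725806-107726055, minus strand) read, 5′ to 3′:
Spdef: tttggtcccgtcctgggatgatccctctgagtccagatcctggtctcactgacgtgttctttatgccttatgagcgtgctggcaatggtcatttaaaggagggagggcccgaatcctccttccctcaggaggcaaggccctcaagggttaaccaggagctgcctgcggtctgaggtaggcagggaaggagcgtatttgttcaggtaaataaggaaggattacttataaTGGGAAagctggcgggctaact
Atoh1: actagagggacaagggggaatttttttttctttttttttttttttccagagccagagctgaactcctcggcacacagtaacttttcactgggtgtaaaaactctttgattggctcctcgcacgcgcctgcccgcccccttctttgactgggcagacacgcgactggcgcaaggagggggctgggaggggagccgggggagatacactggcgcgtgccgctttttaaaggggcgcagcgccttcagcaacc
Neurog3: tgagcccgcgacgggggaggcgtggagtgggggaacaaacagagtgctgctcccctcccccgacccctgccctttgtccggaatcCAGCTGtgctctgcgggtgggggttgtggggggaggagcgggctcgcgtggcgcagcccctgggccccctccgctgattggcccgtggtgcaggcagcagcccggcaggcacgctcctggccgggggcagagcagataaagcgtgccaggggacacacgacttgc
Gfi1: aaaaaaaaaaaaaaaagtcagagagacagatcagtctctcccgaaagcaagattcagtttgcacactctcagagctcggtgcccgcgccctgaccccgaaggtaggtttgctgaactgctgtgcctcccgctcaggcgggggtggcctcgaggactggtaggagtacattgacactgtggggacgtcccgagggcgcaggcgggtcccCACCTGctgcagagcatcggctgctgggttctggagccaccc

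TGGGAA stood in 1 of the 11 promoters, that of *Spdef*, beginning 22 bases before the start, and in 21.6% of 32817 RefSeq promoters of the same length. CACNAG stood in 3 of the 11, those of *Dll4*, *Notch1* and *Notch2*, and in 36.7% of all. CAGNTG stood in 4 of the 11, those of *Dll1*, *Jag1*, *Gfi1* and *Neurog3*, beginning 42 bases before the start in *Gfi1* and 165 in *Neurog3*, and in 44.8% of all. The *Atoh1* promoter held no match in this window. The shares are a description of letters and say nothing of binding.

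Beyond the 4, a list of 21 other factors of secretory fate had 19 genes with a value. In *Pla2g3*+/+, 12 of the 19 were over 2-fold lower after AOM and 3 were higher, with a median log2 ratio of -1.38. Of all genes, 22.4% were lower and 15.1% higher in that comparison. In the arrays labeled *Pla2g3*-/-, 4 were lower (*Creb3l4*, *Bhlha15*, *Gfi1b* and *Xbp1*) and 4 higher, among them *Isl1*, *Sox9* and *Neurod1*, with a median of 0.14. There 15.1% of all genes were lower and 9.64% higher. Without scaling, and with normexp background correction and quantile normalization, the 12 in *Pla2g3*+/+ became 6. All genes lower in *Pla2g3*+/+ went from 3873 of 17282 to 1232 of 17178 and 1683 of 17386 under these 2 settings. *Insm1*, a zinc-finger factor of endocrine cells, was 8.02-fold lower in *Pla2g3*+/+, *Creb3l4* 7.32-fold and *Creb3l1* 6.08-fold. The *Creb3l* genes encode membrane-bound factors of secretory cells. *Klf4*, a factor of goblet cell differentiation, was 5.87-fold lower. *Pax4*, an endocrine factor that was below background in the *Pla2g3*+/+ AOM array, was at least 6.92-fold lower. The 3 that were higher were *Isl1* at 10.4-fold, *Sox4* at 8.47-fold and *Sox9* at 2.90-fold. *Sox9* is known as a factor of crypt base cells, *Sox4* of precursor cells and *Isl1* of endocrine cells.

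Between the genotypes after AOM, 8 of the 19 other factors were over 2-fold higher in the array labeled *Pla2g3*-/- and 2 were lower. These were 42.1% and 10.5%, against 15.1% and 12.9% of all genes. With normexp background correction the counts were 4 and 1, where 8.79% of all genes were higher. *Klf4* was 9.95-fold higher, *Insm1* 6.97-fold and *Creb3l1* 5.29-fold, whereas *Sox4* was 8.06-fold lower and *Isl1* 2.47-fold lower. *Creb3l4* (1.28-fold) and *Bhlha15* (1.40-fold lower), which also serve secretory cells, were within 2-fold between the genotypes, having been 5.5-fold and 4.38-fold lower after AOM in the arrays labeled *Pla2g3*-/- too. The factors thus did not all follow the order seen for *Atoh1*. *Pax6* and *Pou2f3*, the latter the factor of tuft cells, were below background on all 4 arrays.

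**Figure D2:**
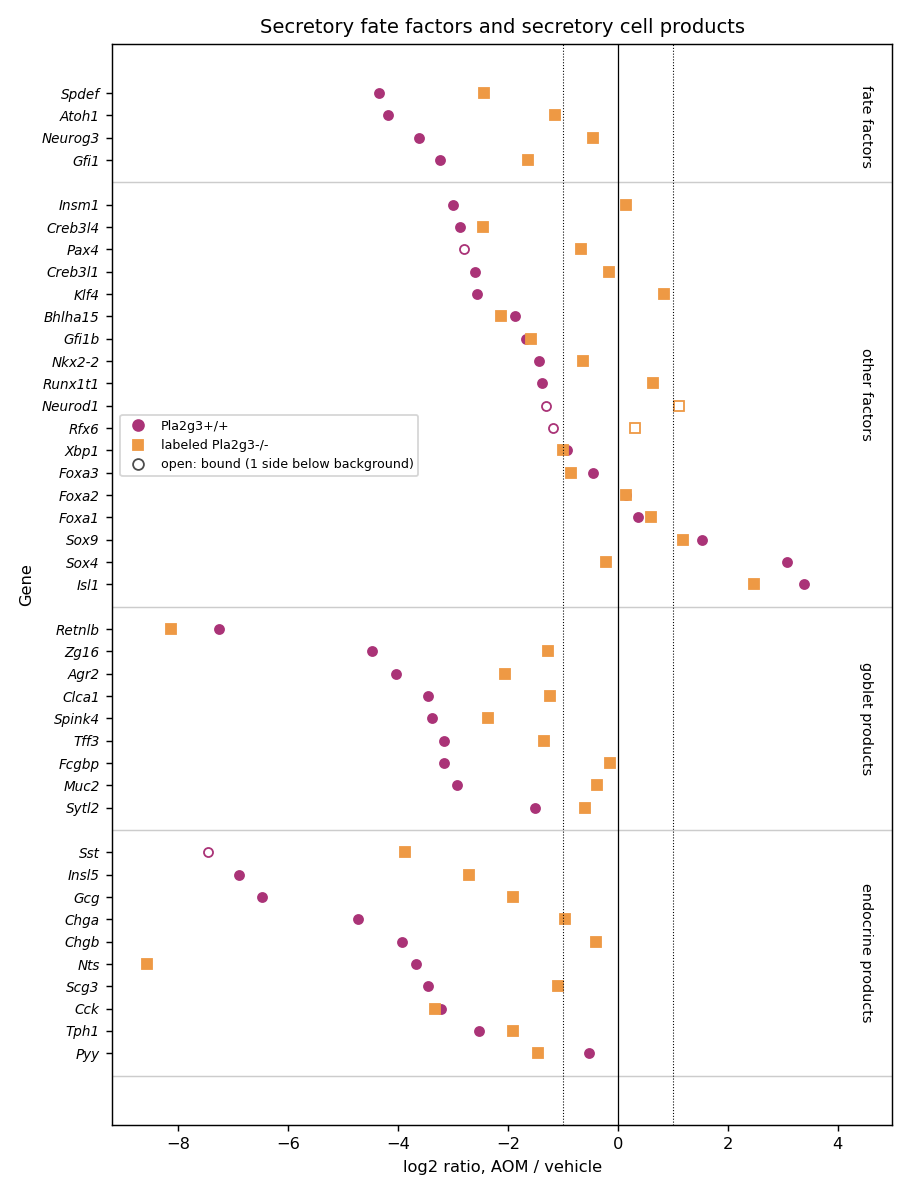
log2 ratio of AOM over vehicle for the 4 secretory fate factors, other factors of secretory fate, goblet cell products and enteroendocrine products, in *Pla2g3*+/+ (purple circles) and in the arrays labeled *Pla2g3*-/- (orange squares); dotted lines mark 2-fold and open symbols are bounds where 1 side was below background. For all 4 fate factors the purple symbol lies to the left of the orange one, and 9 goblet products in *Pla2g3*+/+ and 6 in the arrays labeled *Pla2g3*-/- lie beyond 2-fold lower (8 and 3 without scaling).

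The products of the cells that these factors make were lower as well. All 9 goblet cell products were over 2-fold lower after AOM in *Pla2g3*+/+ (median log2 ratio -3.38) and 6 of 9 in the arrays labeled *Pla2g3*-/- (-1.27), where quantile normalization, with or without normexp, and no scaling each left 3. *Zg16*, a goblet cell lectin, had levels of 444 and 404 with vehicle and of 20.0 and 168 after AOM, and *Clca1*, a mucus-processing protein, of 336 and 313 and of 30.6 and 134. A second *Clca1* probe did not show this, with log2 ratios after AOM of -0.15 in *Pla2g3*+/+ and 0.10 in the arrays labeled *Pla2g3*-/-. *Muc2*, the main gel-forming mucin, was 7.57-fold lower in *Pla2g3*+/+ and 1.30-fold lower in the arrays labeled *Pla2g3*-/-. Between the genotypes after AOM 7 of 9 goblet products were higher in the array labeled *Pla2g3*-/-, with a median of 1.99. *Retnlb*, a goblet cell product induced by bacteria, did not share this, being 154-fold and 281-fold lower after AOM in the 2 genotypes.

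Of 10 enteroendocrine products, 9 were over 2-fold lower after AOM in *Pla2g3*+/+ (median -3.81) and 8 in the arrays labeled *Pla2g3*-/- (-1.91). *Chgb*, a granin of hormone granules, had levels of 14.6 and 11.9 with vehicle and of 0.952 and 9.06 after AOM, an order like that of *Neurog3*. Between the genotypes after AOM 6 of 10 were higher in the array labeled *Pla2g3*-/- and 2 lower, with a median of 2.85 (1.23 with normexp background correction). The hormone *Pyy* went the other way between the genotypes, with levels of 15.2 and 11.6 with vehicle and of 10.6 and 4.25 after AOM, and so did *Nts*, which was 32.8-fold lower in the array labeled *Pla2g3*-/-. That *Nts* fold rests on a level of 0.0165, within the range of the dimmest signals called above background (0.0126 to 0.0228). Tuft cell genes, led by *Ptgs1*, had 3 of 8 over 2-fold lower in each genotype and none higher, but without scaling 4 were higher and 1 lower in *Pla2g3*+/+. Paneth cell genes, with 5 of 7 on the array, had 4 of 5 over 2-fold higher after AOM in *Pla2g3*+/+ and 5 of 5 lower in the array labeled *Pla2g3*-/- than in *Pla2g3*+/+. *Lyz1* was 3.33-fold higher in the former comparison, and *Ang4*, the brightest, was the exception at 28.5-fold lower. Paneth cells belong to the secretory lineage but are no part of normal mouse colon.

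Among the receptors, *Notch1* went opposite ways in the genotypes by its brighter probe. That probe read 0.239 in *Pla2g3*+/+ and 0.267 in the array labeled *Pla2g3*-/- under vehicle, and 0.0888 and 0.647 under AOM. The *Pla2g3*+/+ AOM array was thus the lowest and the AOM array labeled *Pla2g3*-/- the highest. *Notch1* was 2.69-fold lower after AOM in *Pla2g3*+/+ (log2 ratio -1.43), 2.42-fold higher in the arrays labeled *Pla2g3*-/- (1.27), and differed 7.28-fold between the genotypes after AOM (2.86). The probe lies at chr2:26319440-26319499 of mm9, minus strand, 5898 bases into the transcript by the array's annotation, and since this value rests on it alone its sequence is shown.
Notch1 probe: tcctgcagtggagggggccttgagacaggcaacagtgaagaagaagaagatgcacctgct

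The second *Notch1* probe (chr2:26314630-26314689 of mm9, minus strand) starts at base 8221, nearer the 3′ end, and did not bear this out. It was below background on 3 arrays and above it only in the *Pla2g3*+/+ AOM array, at a level of 0.0195, which makes it at least 1.18-fold higher after AOM in *Pla2g3*+/+ and at least 1.34-fold lower in the array labeled *Pla2g3*-/-. Both bounds point against the brighter probe. The lower *Notch1* level after AOM in *Pla2g3*+/+ also fell short of 2-fold without scaling (log2 ratio -0.41) and with normexp background correction (-0.88), and the higher level in the arrays labeled *Pla2g3*-/- did so with normexp background correction (0.90).

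*Notch2*, the other receptor, was higher after AOM in both genotypes. Its brighter probe (chr3:97953914-97953973, plus strand) had levels of 0.345 and 0.338 with vehicle and of 1.41 and 0.992 after AOM, and the second probe (chr3:97951233-97951292) was below background on all 4 arrays. Both AOM arrays lay above both vehicle arrays, 4.09-fold in *Pla2g3*+/+ and 2.94-fold in the arrays labeled *Pla2g3*-/-. These 2 differences passed 2-fold under every alternative that gave a value. The genotypes differed 1.02-fold with vehicle and 1.42-fold after AOM.

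Of the ligands, *Jag1* and *Dll1* were over 2-fold higher after AOM in the arrays labeled *Pla2g3*-/-, and none passed 2-fold in *Pla2g3*+/+, where all 3 did without scaling. *Jag1*, a ligand of the Jagged family (probe at chr2:136907433-136907492, minus strand), had levels of 0.237 and 0.213 with vehicle and of 0.452 and 0.491 after AOM, 1.91-fold higher in *Pla2g3*+/+ and 2.31-fold higher in the arrays labeled *Pla2g3*-/-. The genotypes were within 1.11-fold of each other, and the larger difference fell below 2-fold with normexp background correction (log2 ratio 0.78). *Dll1*, which marks early secretory precursors of the crypt (probe at chr17:15504623-15504682, minus strand), had levels of 0.112 and 0.0956 with vehicle and of 0.168 and 0.322 after AOM. Its highest array was the AOM array labeled *Pla2g3*-/-, 3.37-fold above vehicle and 1.91-fold above *Pla2g3*+/+ AOM, with a difference of 1.51-fold in *Pla2g3*+/+. This probe was printed on 10 spots of each array, whose SD was 0.05 to 0.16 on the log2 scale, so that the *Dll1* differences after AOM exceeded the spread of the spots. That spread leaves out any difference between mice. A second *Dll1* probe (chr17:15513726-15513785) was below background on all 4 arrays.

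*Dll4*, a ligand of both endothelial and crypt cells (probe at chr2:119160779-119160838, plus strand), had levels of 0.101 and 0.0898 with vehicle and of 0.165 and 0.0684 after AOM. The *Pla2g3*+/+ AOM array was the highest and the AOM array labeled *Pla2g3*-/- the lowest, 2.41-fold apart, while AOM and vehicle differed 1.63-fold in *Pla2g3*+/+ and 1.31-fold in the other direction in the arrays labeled *Pla2g3*-/-. The difference between the genotypes fell below 2-fold with normexp background correction (log2 ratio -0.64), and without scaling *Dll4* was higher after AOM in the arrays labeled *Pla2g3*-/- too (0.46). A list of endothelial genes, led by *Egfl7* and *Kdr*, was lower in the same comparison of the genotypes after AOM. There 5 of 10 genes, *Kdr* not among them, were over 2-fold lower in the array labeled *Pla2g3*-/- and none higher, with a median of -0.95. For AOM against vehicle in the arrays labeled *Pla2g3*-/- the list did not follow *Dll4*. It had 2 genes over 2-fold higher and 1 lower there, with a median of 0.35. The part of endothelial cells in the *Dll4* values was not tested.

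*Hes1*, the repressor that Notch switches on in the crypt (probe at chr16:30067820-30067879, plus strand), passed 2-fold in none of the 4 comparisons. Its levels were 0.631 and 0.668 with vehicle and 0.540 and 0.826 after AOM. The widest gap, 1.53-fold between the genotypes after AOM, compares with 8.73-fold for *Atoh1*, which it represses. *Hes1* was 1.17-fold lower after AOM in *Pla2g3*+/+ and 1.24-fold higher in the arrays labeled *Pla2g3*-/-, and without scaling it was higher in both (log2 ratios 0.80 and 1.15). Over the 4 arrays, the genes whose pattern was nearest to that of *Hes1* among 14792 genes above background throughout included *Taf8* and *Itch*, at Euclidean distances of 0.0316 and 0.0325 between mean-centered log2 values. For *Atoh1* they were *D630033O11Rik*, *H2-Q1* and *Mep1b*, at 0.168, 0.191 and 0.211. With 4 arrays and 14792 genes some near patterns are bound to be found, so these names say nothing of a shared pathway.

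**Figure D3:**
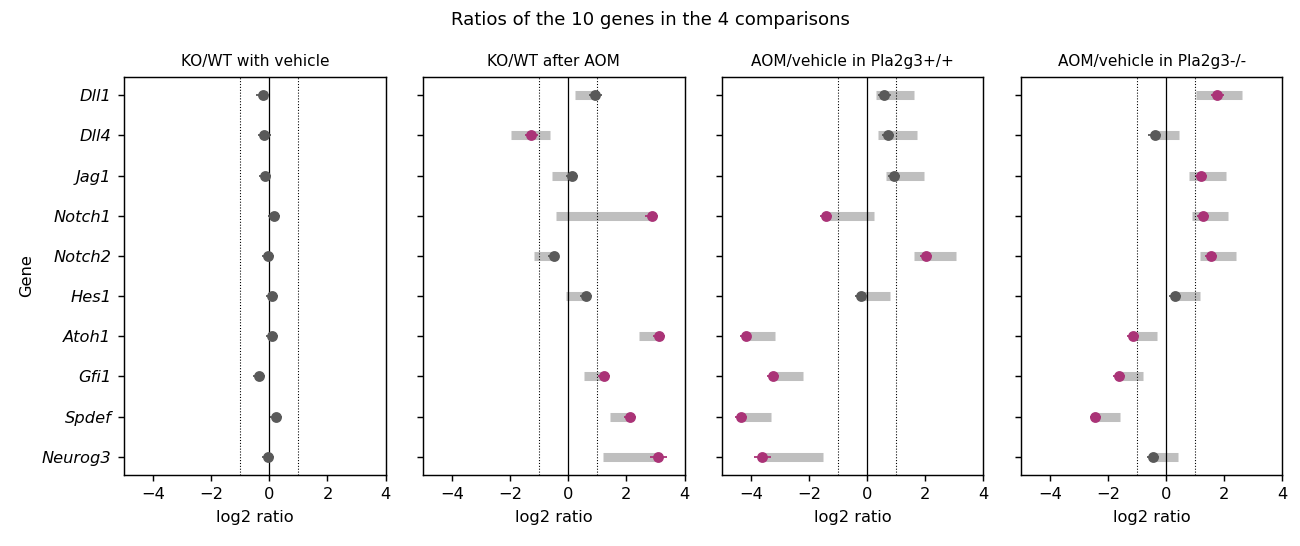
log2 ratios of the 10 genes in the 4 comparisons (KO, the array labeled *Pla2g3*-/-, WT, *Pla2g3*+/+), with dots for the brightest probe, purple where past 2-fold (dotted lines), thin bars for the error model of the scanner software and gray bands for the range over all alternative settings. The bands stay beyond 2-fold for *Atoh1*, *Spdef* and *Neurog3* between the genotypes after AOM, span 0 for *Notch1* there, and cross 0 without scaling for *Hes1* in *Pla2g3*+/+.

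Other members of the Hes and Hey family, which also act as effectors or repressors, did not follow *Hes1*. After AOM in *Pla2g3*+/+, *Hey1* was 3.68-fold higher, *Hes6* 2.43-fold and *Heyl* 2.01-fold, whereas *Hes2* was 4.68-fold lower, *Hes5* 4.30-fold and *Hes7* 2.42-fold. In the array labeled *Pla2g3*-/- after AOM, relative to *Pla2g3*+/+, *Hes6* was 3.73-fold lower, *Heyl* 2.82-fold, *Hey1* 2.37-fold and *Hey2* at least 2.01-fold, and *Hes2* was 6.29-fold higher. With normexp background correction 1 gene of the list in place of 4 was over 2-fold lower, and the median of the list went from -1.01 to -0.26. The *Hey* genes are known from vessels as well as from other tissues. After AOM in *Pla2g3*+/+, 7 of 10 genes of the endothelial list were over 2-fold higher. The part of vessels in the *Hey* values was not tested. *Hes6* is known from precursor cells, and it had levels of 7.13 and 7.35 with vehicle and of 17.3 and 4.65 after AOM. *Hes5* was 2.22-fold lower after AOM in the arrays labeled *Pla2g3*-/- and was the only one of this list past 2-fold there. Its levels after AOM, 0.0159 in *Pla2g3*+/+ and 0.0267 in the array labeled *Pla2g3*-/-, were near the dimmest signals called above background. *Hes3* was below background on all 4 arrays.

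The pathway was also read through 50 other genes, of which 49 were on the array (all but *Aph1c*). After AOM in *Pla2g3*+/+, 11 of 48 with a value were over 2-fold higher and 7 lower, with a median log2 ratio of 0.39. These shares were 22.9% and 14.6%, against 15.1% and 22.4% of all genes. Without scaling 29 of the 48 were higher and 2 lower, where 45.1% of all genes were higher. In the arrays labeled *Pla2g3*-/-, 8 of 47 were higher and 4 lower, with a median of 0.28, against 9.64% and 15.1% of all genes. Without scaling 26 of the 47 were higher and 0 lower, where 38.1% of all genes were higher. The unscaled counts were not corrected for the upward shift of all genes. Between the genotypes after AOM 5 of 48 were higher and 7 lower, or 10.4% and 14.6%, with a median of 0.06 that was -0.11 without scaling. With vehicle 1 of 46 passed 2-fold, *Dlk1*, a non-canonical ligand of precursor cells, 2.96-fold higher in the array labeled *Pla2g3*-/-. The shares between the genotypes after AOM lie near the 15.1% and 12.9% of all genes, and no list apart from the Hes and Hey factors had more than 3 genes past 2-fold between the genotypes after AOM.

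Among the other ligands and receptors, *Jag2* had levels of 0.0328 and 0.0436 with vehicle and of 0.208 and 0.104 after AOM, 6.34-fold and 2.40-fold higher after AOM in *Pla2g3*+/+ and in the arrays labeled *Pla2g3*-/-. *Notch3*, the receptor of mural cells of vessels, was 4.48-fold and 3.5-fold higher, and *Notch4*, the receptor of endothelium, 3.03-fold and 1.92-fold. Together with *Notch2*, these receptors were higher after AOM than with vehicle, unlike the brighter probe of *Notch1* in *Pla2g3*+/+. *Dlk1* was 6.45-fold (log2 ratio 2.69, and 0.39 by a second probe) and *Dner*, a ligand known from neurons, 4.07-fold higher in the array labeled *Pla2g3*-/- than in *Pla2g3*+/+ after AOM. Both had been lower after AOM than with vehicle in *Pla2g3*+/+, and *Dner* was 2.0-fold higher in the arrays labeled *Pla2g3*-/-. *Dll3* was 2.21-fold lower there. The *Dlk1* fold between the genotypes after AOM rests on a level of 0.0248 in *Pla2g3*+/+, just above the dimmest signals called above background (0.0126 to 0.0228).

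Of 9 genes that modify ligands or receptors, *Mfng* and *Lfng*, the Fringe enzymes that add sugars to Notch, were 3.51-fold and 2.39-fold lower in the array labeled *Pla2g3*-/- than in *Pla2g3*+/+ after AOM, and *Neurl1a*, a ubiquitin ligase for ligands, was 3.42-fold lower. *Mfng* and *Lfng* were also 3.20-fold and 2.54-fold lower after AOM than with vehicle in the arrays labeled *Pla2g3*-/-. Both are known from lymphocytes. In that comparison the T cell list (led by *Cd4* and *Lck*) had 7 of 8 genes over 2-fold lower, all but *Cd4*. The B and plasma cell list (led by *Jchain* and *Mzb1*) also had 7 of 8. After AOM in *Pla2g3*+/+ the directions differed. *Mfng* was 1.71-fold and *Lfng* 1.65-fold higher there, whereas the T cell list had a median log2 ratio of -0.68 and the B and plasma cell list of -1.22. The part of lymphocytes in the Fringe values was not tested. *Neurl1a* (2.48-fold) and *Mib1* (2.34-fold), another ligase for ligands, were higher after AOM in *Pla2g3*+/+.

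Of 8 genes of the cleavage machinery on the array, 2 (25.0%) passed 2-fold after AOM in *Pla2g3*+/+. Of all genes, 15.1% were over 2-fold higher and 22.4% lower in that comparison. *Adam10*, the protease of the first cut, was 2.08-fold higher and *Psenen*, a γ-secretase subunit, 2.18-fold lower after AOM in *Pla2g3*+/+. *Ncstn*, another subunit, was 2.87-fold higher after AOM in the arrays labeled *Pla2g3*-/-, and *Aph1a* was 2.52-fold (1.33 on the log2 scale, and 0.88 by a second probe) higher there than in *Pla2g3*+/+ after AOM. Of 8 genes of the nuclear complex none differed over 2-fold between the genotypes in either treatment. *Rbpj*, its DNA-binding core, had levels of 0.698 and 0.753 with vehicle and of 0.759 and 1.17 after AOM. The coactivator *Maml2* was at least 3.61-fold higher after AOM in *Pla2g3*+/+, and in the arrays labeled *Pla2g3*-/- *Spen* (2.54-fold), *Maml3* (2.35-fold), *Maml2* (at least 2.27-fold) and *Kat2b* (2.20-fold) were higher. Among 9 negative regulators, *Dtx4* was 2.17-fold higher and *Dtx1* 3.17-fold lower after AOM in *Pla2g3*+/+, and *Dtx1* was 2.46-fold higher in the array labeled *Pla2g3*-/- after AOM. After AOM in *Pla2g3*+/+, 22.2% of these regulators thus passed 2-fold, and neither this list nor the cleavage list exceeded the share of all genes. *Nrarp*, a direct Notch target that feeds back on the complex, had levels of 0.10 and 0.138 with vehicle and of 0.0697 and 0.103 after AOM.

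**Figure D4:**
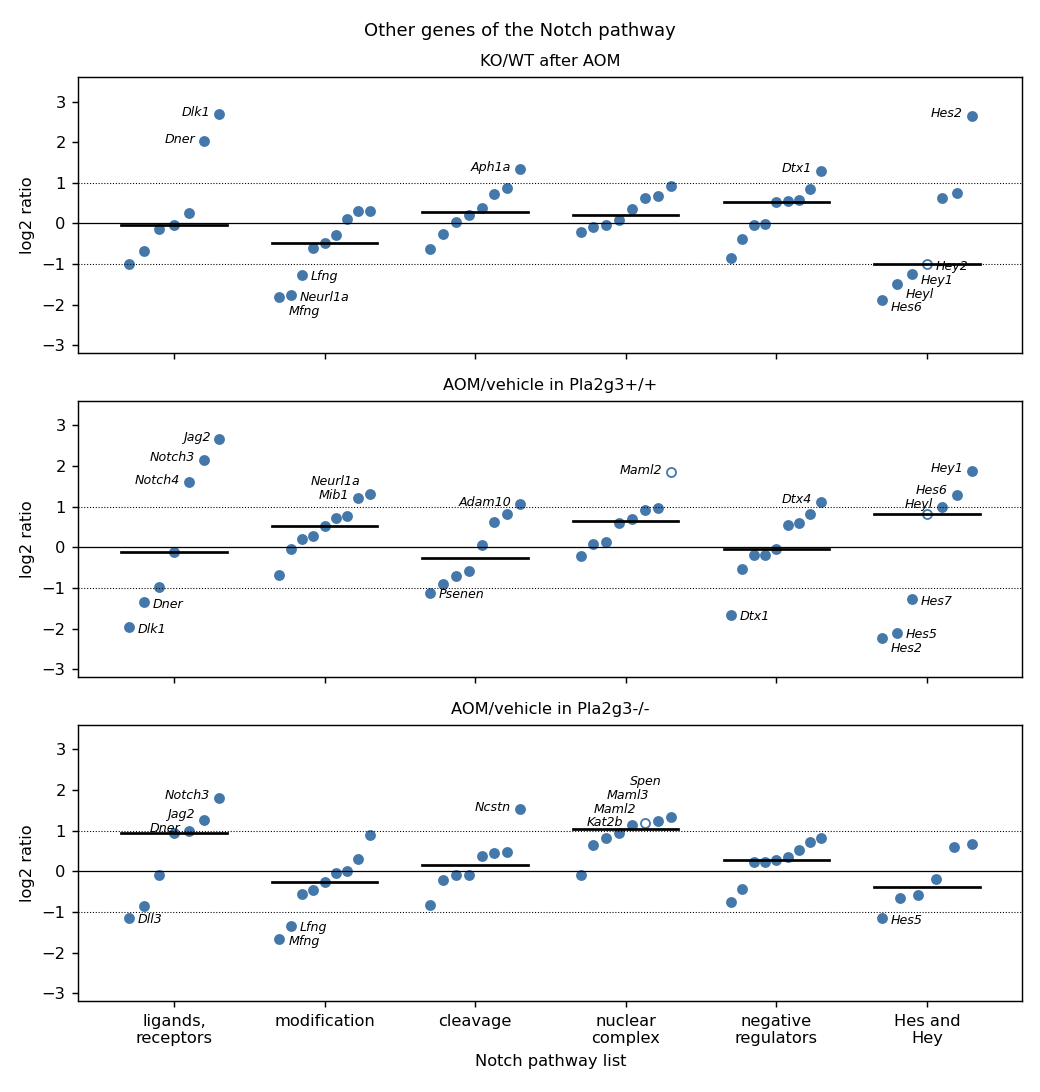
log2 ratios of the other Notch pathway genes by list in 3 comparisons (KO, the array labeled *Pla2g3*-/-, WT, *Pla2g3*+/+); each dot is a gene, open dots are bounds, bars are list medians and dotted lines mark 2-fold. *Jag2* and *Notch3* stand highest after AOM in *Pla2g3*+/+, and between the genotypes after AOM *Dlk1* and *Hes2* stand highest and *Hes6* lowest.

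Several cell type lists differed between the same arrays. The smooth muscle list, led by *Tagln* and *Acta2*, had summed levels of 499 and 525 with vehicle and of 29.1 and 477 after AOM, so that its 8 genes were all over 2-fold lower in the *Pla2g3*+/+ AOM array than in each array it was compared with. The list of Wnt tumor and crypt base genes, led by *Smoc2* and *Rnf43*, had summed levels of 10.6 and 10.6 with vehicle and of 57.0 and 10.9 after AOM. Between the genotypes after AOM, 9 of its 10 genes were over 2-fold lower in the array labeled *Pla2g3*-/-, whereas *Olfm4* was over 2-fold higher. After AOM against vehicle in the arrays labeled *Pla2g3*-/-, *Olfm4* was over 2-fold higher and *Lgr5* over 2-fold lower. Absorptive colonocyte genes, led by *Guca2a* and *Car1* and with 9 of 10 on the array (all but *Ceacam1*), were over 2-fold lower in 8 of 9 cases after AOM in *Pla2g3*+/+ and in 3 of 9 in the arrays labeled *Pla2g3*-/- (7 and 0 without scaling). Lower levels after AOM in *Pla2g3*+/+ were thus not limited to secretory genes. Pan-epithelial genes moved less, with summed levels of 564 and 579 with vehicle and of 376 and 526 after AOM. Their median log2 ratio after AOM in *Pla2g3*+/+ was -0.53, but 0.31 with quantile normalization, 0.29 with normexp background correction and 0.49 without scaling.

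Relative to that pan-epithelial median, a setting chosen after seeing the data, *Atoh1* was still lower after AOM in *Pla2g3*+/+ by a log2 ratio of -3.66, *Spdef* of -3.81, *Neurog3* of -3.08 and *Gfi1* of -2.71. Between the genotypes after AOM the same setting left *Atoh1* at 2.44, *Neurog3* at 2.41, *Notch1* at 2.17 and *Spdef* at 1.44, and *Gfi1*, at 0.55, no longer passed 2-fold. In whole tissue, fewer cells of a type and less RNA per cell cannot be told apart. Of 8 myeloid genes, 5 were over 2-fold higher and 1 lower after AOM in *Pla2g3*+/+, and 6 were lower and 1 higher in the array labeled *Pla2g3*-/- than in *Pla2g3*+/+. The exception both times was *Itgam*, 3.14-fold lower and 2.12-fold higher, which with *Csf3r* (1.11-fold lower and 1.21-fold higher) was the brightest of the list. The 3 *Itgam* probes disagreed, with log2 ratios of -1.65 to 1.54 in the former comparison. Squamous epithelium genes had a summed level of 23.8 in the AOM array labeled *Pla2g3*-/- and of 6.11 to 7.61 on the 3 others. This sum rests on *Krt5*, at 15.3 in that array and 0.0266 to 0.0561 on the others, whereas of the brightest genes *Trp63* differed 1.13-fold between the genotypes after AOM by its brightest probe (log2 ratios of 0.18 to 5.68 over 4 probes) and *Sprr1a* was 2.39-fold lower in the array labeled *Pla2g3*-/-. The part of these tissues in the values of the 10 genes was not tested.

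**Figure D5:**
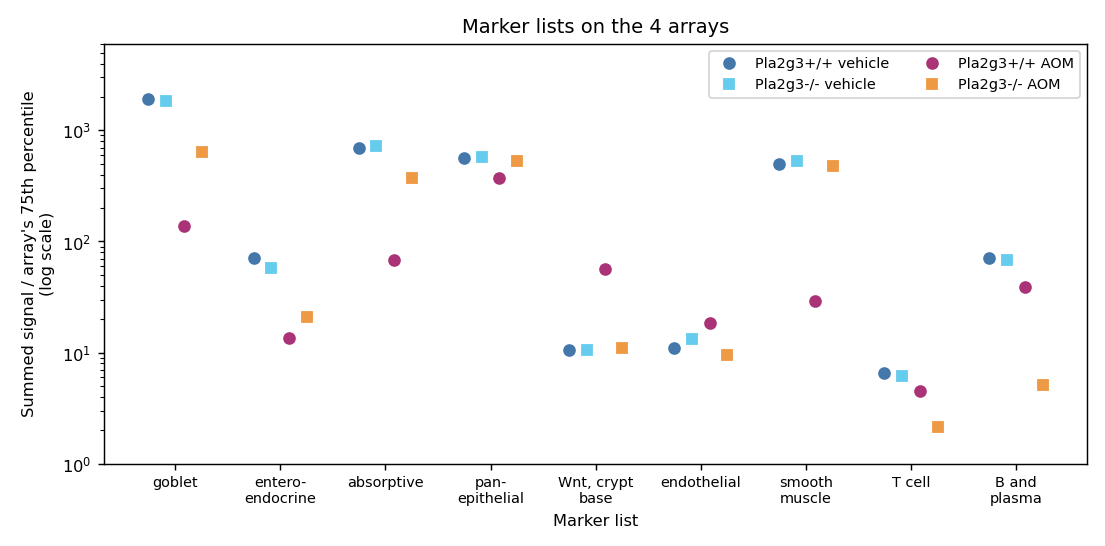
Summed signal over the 75th percentile of the array (log axis) for 9 marker lists on the 4 arrays, with symbols as in the plot of the 10 genes. In the *Pla2g3*+/+ AOM array the goblet, enteroendocrine, absorptive and smooth muscle lists are at their lowest and the Wnt list, at 57.0, at its highest.

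The 4 arrays allow 1 test, an additive limma fit with treatment and genotype as terms and 1 residual degree of freedom, which asks for an effect alike in both levels of the other factor. Over 17884 genes it called 0.0% for either term after Benjamini-Hochberg adjustment at 0.05. Unadjusted, p was under 0.05 for 2406 genes by treatment and for 215 by genotype. Of the 10 genes, *Spdef* had a treatment effect of -3.38 ± 0.65 (SE, log2 scale), *Gfi1* of -2.44 ± 0.57, *Notch2* of 1.79 ± 0.34 and *Jag1* of 1.07 ± 0.31. These each had an adjusted p of 0.368, the smallest over all genes. For *Notch1*, which went opposite ways in the genotypes by its brighter probe, the effect was -0.08 ± 0.86 with an adjusted p of 0.966. None of the 10 genes passed for either term.

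AOM against vehicle depends on how the arrays are brought to 1 scale, because the 75th percentile was an intensity of 646 and 649.8 on the vehicle arrays and of 1309 and 1169 on the AOM arrays. Of all genes past 2-fold after AOM, 40.3% were higher in *Pla2g3*+/+ and 38.9% in the arrays labeled *Pla2g3*-/-. With normexp and quantile normalization these shares were 51.5% and 51.2%, without scaling 86.3% and 91.1%, and with quantile normalization alone 49.6% in *Pla2g3*+/+. The 4 secretory fate factors stayed over 2-fold lower after AOM in *Pla2g3*+/+, and *Notch2* over 2-fold higher, under all of these scalings.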

How the data were processed

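Total RNA of mouse colon, pooled within each group, was labeled with Cy3 (27.7 ng per pool) and hybridized to 4 Agilent Whole Mouse Genome arrays on 1 slide. Groups came from the deposited labels. For each spot the authors deposited an intensity, read with Agilent Feature Extraction 11.5.1.1 and corrected for background within the array and not scaled between arrays. They also deposited a table of processed values, which on comparison with the intensities is a linear ratio over a reference level of each probe. It was used as an alternative. Its reference level is not given in the sources used here.

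The members and gene lists were chosen with earlier results of these data known. Control spots and outlier spots were left out, log2 intensities of replicate spots were averaged, and the 75th percentile of the array was subtracted. For each gene the probe with the highest mean signal stood for the gene. A probe counted as well above background if most of its spots did. Where 1 side was not, it took either its own signal or that of the dimmest probe called above background on the array, whichever was higher (0.0126 to 0.0228 of the 75th percentile), and the fold is written as "at least". Ratios past 2-fold were counted, as in the study. Names came from a RefSeq table (GRCm38.p6), which matched 31394 of 39429 probes. Probe coordinates are those of the files (mm9). Of the other pathway genes, the 4 largest ratios per comparison and every gene of a count of 5 or fewer are named, and of each marker list the 2 brightest genes. *Muc2*, *Retnlb*, *Nts*, *Pax4*, *Rbpj*, *Nrarp*, *Olfm4* and *Lgr5* were named after their values were seen. Some genes are not reported here by name. The number of arrays limits the precision. Replicate spots had a median SD of 0.0574 to 0.0657 on the log2 scale, which leaves out the spread between mice. The additive fit used limma 3.58.1 in R 4.3.3, tested on simulated data. In the alternatives, the background correction, the scaling, the probe, the treatment of dim probes, the source of the values and the fold threshold were varied.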

Additional observations from a re-analysis of the deposited data

Results flagged for a closer look

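*Notch1* was flagged because its brighter probe went opposite ways after AOM in the genotypes, with a log2 ratio of -1.43 in *Pla2g3*+/+ and of 1.27 in the arrays labeled *Pla2g3*-/-. This opposition was not tested, as each group had a single array. The dimmer *Notch1* probe does not show it, being above background on the *Pla2g3*+/+ AOM array only.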

How the results depend on the processing

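Of 40 ratios of the 10 genes, 19 passed 2-fold, and 11 of these did so under every alternative that gave a value, whereas 8 fell below 2-fold under at least 1. Of the other 21, 6 passed 2-fold under at least 1 alternative. Direction was reversed for 2 of the 19, both *Notch1* with the dimmest detected probe, at a log2 ratio of -0.42 between the genotypes after AOM and of 0.24 after AOM in *Pla2g3*+/+. Between the genotypes after AOM, the count of genes lower went from 1 to 0 with normexp and quantile normalization and at 4-fold, and to 2 relative to the pan-epithelial list, a setting chosen after seeing the data. After AOM in *Pla2g3*+/+, the count higher went from 1 to 4 without scaling, where 45.1% of all genes were over 2-fold higher, at 1.5-fold and relative to the pan-epithelial list. In the arrays labeled *Pla2g3*-/-, the count lower went from 3 to 1 without scaling and at 4-fold, and the count higher from 4 to 2 with normexp and quantile normalization and to 0 at 4-fold. For these counts the cause was not tested. All genes over 2-fold lower between the genotypes after AOM went from 2218 of 17203 to 1300 of 17242 with normexp and quantile normalization. In the arrays labeled *Pla2g3*-/-, 9.64% of all genes were higher after AOM, and 5.38% with normexp and quantile normalization. Without scaling, all genes lower there went from 2497 of 16521 to 625 of 16787. The additive fit called 0 genes under each of its 4 alternatives, with 2088 to 3167 genes at an unadjusted p under 0.05 for treatment and 56 to 348 for genotype. No paired analysis was possible because each group had 1 array. Values near background, such as *Neurog3* in the *Pla2g3*+/+ AOM array and the dimmer *Notch1* probe, limit what can be read from them.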
